A study of Rattus norvegicus with 8 samples.

Results

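Fatty acid uptake and beta-oxidation were examined through 32 genes in rat tibialis anterior, the mainly fast muscle at the front of the shin. The members were taken from a fixed list of symbols, each gene being read by the brightest probe set that carries its symbol alone in the platform annotation. Of the 32 members, 30 passed the filter on low values and were tested among 10200 genes of the array. Acot1 lay under that filter, and Acaa1a is read only together with a second gene.

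RNA of 8 adult Sprague-Dawley rats was hybridised to 1 Affymetrix array per rat. The hyperthyroid group of 4 rats was given T3 (triiodothyronine, the form of thyroid hormone that binds its receptors) intraperitoneally at 2-day intervals for 6 weeks, each dose being 25 µg for every 100 g the rat weighed, and was killed 24 hours after the last. The control group of 4 rats was untreated. Each group held 3 males and 1 female of 200 ± 40 g at the start. Hyperthyroid arrays are called by replicate numbers 1, 2, 3 and 5 and control arrays by 7, 8, 9 and 11.

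Working muscle takes up long-chain fatty acids with the help of CD36 and FATP1, carries them bound to the protein FABP3 and ties them to coenzyme A. The acyl groups then cross into mitochondria as carnitine esters, and each turn of beta-oxidation removes a short unit as acetyl-CoA through dehydrogenation, hydration, a second dehydrogenation and thiolysis. Electrons of the first dehydrogenation pass through the electron transfer flavoprotein to the respiratory chain. This pathway is known to be richer in slow and fast oxidative fibres than in fast glycolytic ones. T3 is known to raise energy expenditure and to act through nuclear receptors, which bind hormone response elements as partners of the retinoid X receptor.

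Of the 30 tested members, 28 had a log2 fold change (hyperthyroid over control) below 0, and Eci2 and Ehhadh lay above 0. The median over the members was -0.37, while the median over all 10200 genes was -0.00029. With arrays centred on their medians 20 members lay below 0, and with arrays scaled to the hybridization controls 17 did, as these scalings moved the median of all genes to 0.22 and 0.31 and that of the members to -0.15 and -0.054. No member passed the test (limma, Benjamini-Hochberg adjusted p under 0.05 over all genes), and over all genes 7 passed (0.0686%), all of them higher in hyperthyroid muscle and 0 (0%) lower. The smallest adjusted p among members was 0.239. Before adjustment, 11 members had a limma p under 0.05, all on the lower side, against 5.21% of all genes on that side and 5.38% on the higher side. That count, taken in either direction, was 0 with arrays centred on their medians and 0 with the hybridization controls. It was 2 without control replicates 7 and 11. With single arrays left out it ran from 3 (without hyperthyroid replicate 5) to 18 (without hyperthyroid replicate 1). The members are not independent of each other, as many were high or low on the same arrays. In a bulk muscle sample, fewer fibres of a type and less RNA per fibre cannot be told apart.

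**Figure D1:**
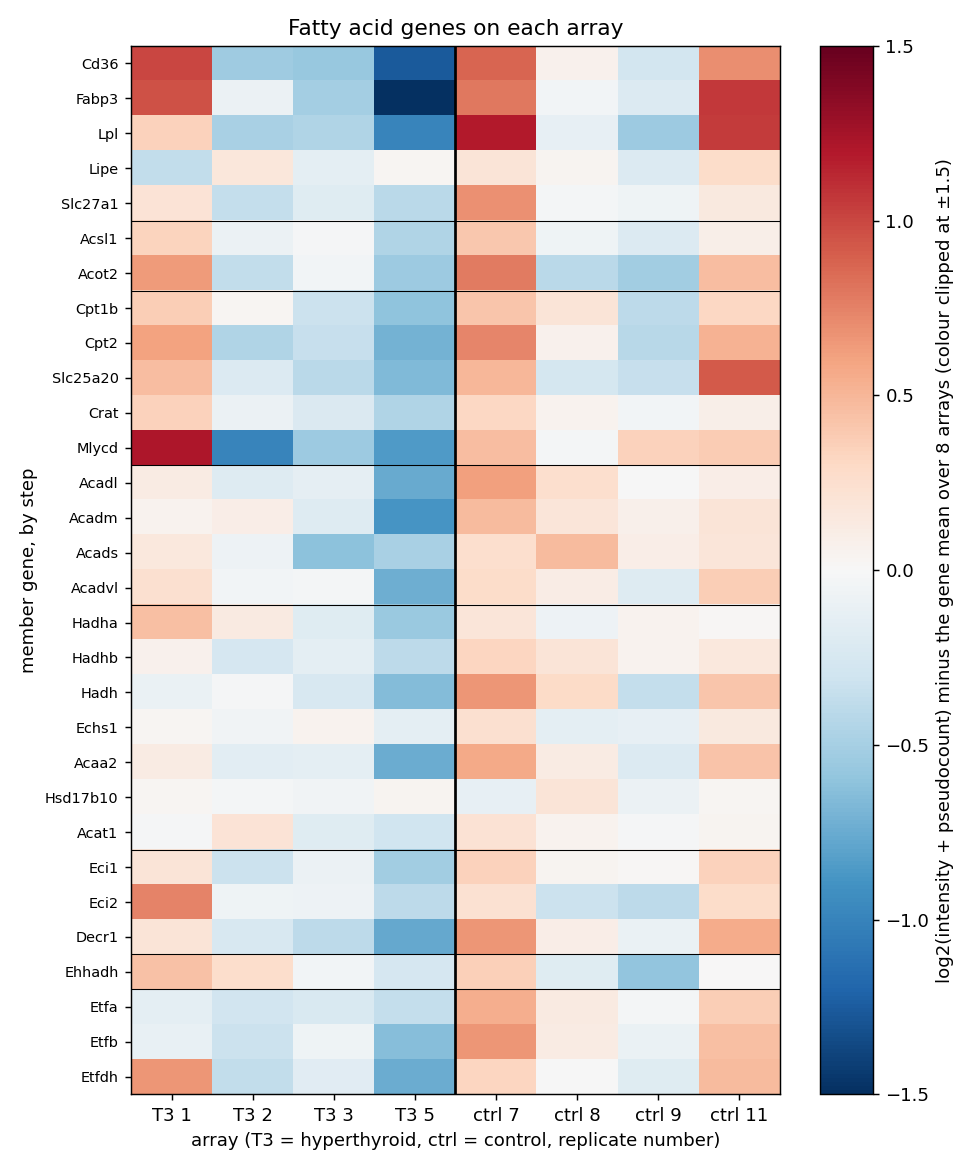
Each row is 1 of the 30 tested members, grouped by step with lines between steps, and each column is 1 array, hyperthyroid left of the line and control right of it. Colour gives log2(intensity + pseudocount) minus the gene's mean over the 8 arrays, with red above and blue below that mean. Hyperthyroid replicate 5 is the lowest array for 25 members, and control replicate 7 is the highest for 16.

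The members' mean level overlapped between the groups. Averaged over the 30 members, the centred log2 level was 0.31, -0.17, -0.22 and -0.61 on hyperthyroid replicates 1, 2, 3 and 5, against 0.47, 0.034, -0.17 and 0.35 on control replicates 7, 8, 9 and 11. Hyperthyroid replicate 1 thus lay among the controls, and control replicate 9 lay with hyperthyroid replicates 2 and 3. Hyperthyroid replicate 5 was the lowest array for 25 of the 30 members. Control replicate 7 was the highest for 16, hyperthyroid replicate 1 for 7 and control replicate 11 for 5.

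Transcripts of slow fibres varied along the same arrays. All 10 slow-fibre markers had a log2 fold change below 0 (median -2.71), and none passed the test. Myh7, the slow myosin heavy chain, had an intensity of 169, 45.2, 5.96 and 5.83 on hyperthyroid and 5569.7, 56.0, 163 and 2692 on control arrays, a log2 fold change of -4.41 ± 1.29. Their summed intensity was 5243, 10145, 4197 and 1562 on hyperthyroid replicates 1, 2, 3 and 5, against 50293, 6638, 4895 and 33475 on control replicates 7, 8, 9 and 11. Control replicates 7 and 11 stood high and hyperthyroid replicate 5 stood lowest, as in the members. Hyperthyroid replicate 1, high in the members, was not high in slow-fibre markers. Without control replicates 7 and 11, the median of the members was -0.10 and 23 of 30 lay below 0. Without hyperthyroid replicate 1 as well, an alternative added after seeing the data, these values were -0.29 and 25. Control replicates 7 and 11 had the highest mean member levels among the controls, so leaving them out raises the members' mean difference by construction. Control replicate 11 was also the control array of high Xist, a transcript of females. The first omission kept the hyperthyroid array of high Xist, replicate 1, and so left sex unbalanced. The part of fibre type in the members' difference was not tested.

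**Figure D2:**
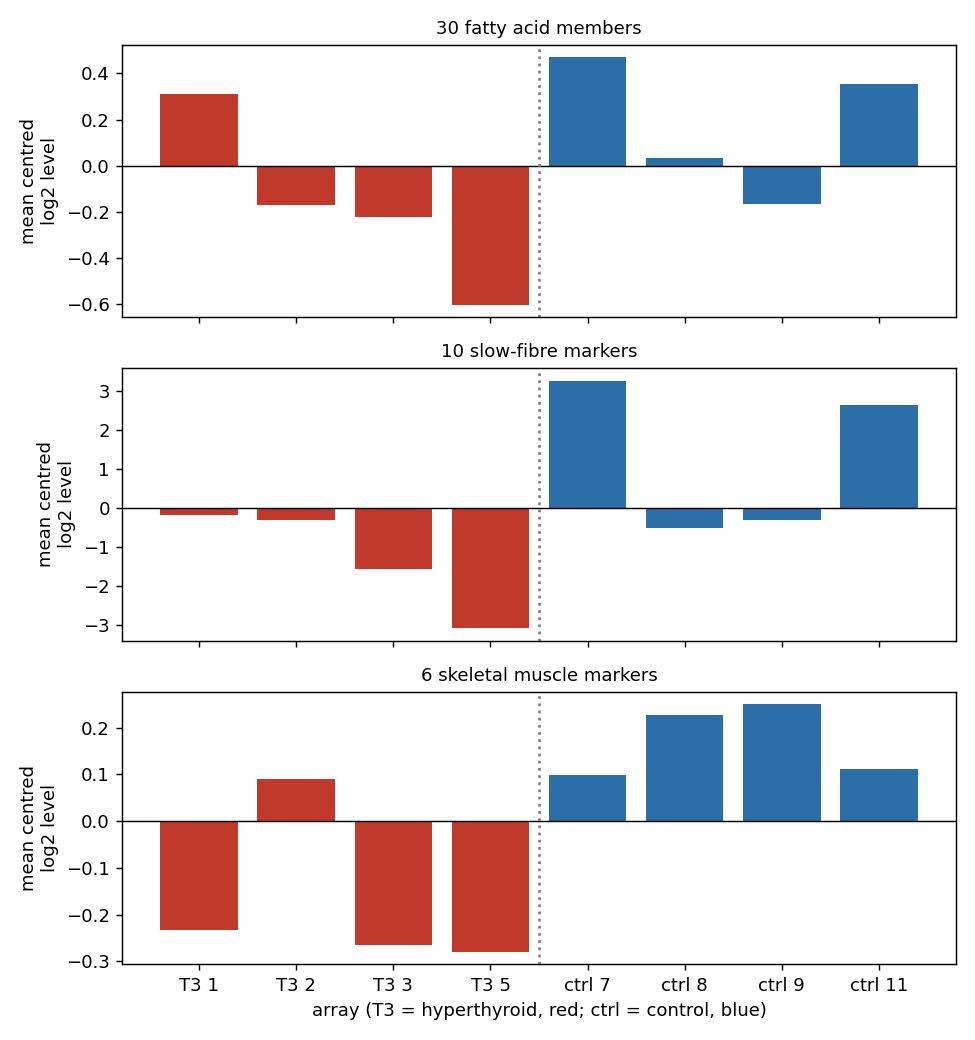
Bars give the mean of centred log2 levels on each array, for the 30 fatty acid members (top), the 10 slow-fibre markers (middle) and the 6 skeletal muscle markers (bottom), with hyperthyroid arrays in red left of the dotted line and control arrays in blue. The members and the slow-fibre markers are both highest on control replicate 7 and lowest on hyperthyroid replicate 5, on vertical scales that differ.

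Markers of other cells shared that order of arrays in part. The summed level of 6 adipocyte markers ran from 1279 to 2669 on hyperthyroid and from 1214 to 2517 on control arrays, with Cfd, Adipoq and Plin1 above 0 and Fabp4 below among the 4 tested. Fabp4 made up most of these sums, at 1096 to 2502 on hyperthyroid and 1092 to 2127 on control arrays. The mean centred log2 level of the adipocyte list, which weighs each gene alike, was highest on hyperthyroid replicate 5, at 1.08. For 7 endothelial markers the sum ran from 979 to 1633 and from 1118 to 1458, with 4 below 0 and 3 above, and hyperthyroid replicate 5 was the lowest array and hyperthyroid replicate 1 the highest. The 5 smooth muscle and mural markers were all below 0, with sums of 1152 to 1299.7 on hyperthyroid and 1392 to 2465 on control arrays. The sum over 4 Schwann cell markers was high on the same 2 controls as the slow-fibre sum, at 625 to 1141 on hyperthyroid arrays and 3069, 323, 484 and 2119.7 on control replicates 7, 8, 9 and 11. Pmp22 made up most of it there, at 2537 and 1916 on control replicates 7 and 11. Mbp and S100b were also highest on control replicate 7, at 387 and 133. On control replicate 11 they were at 113 and 69.0, within their hyperthyroid ranges of 46.1 to 165 and 17.2 to 129. Sums over 5 macrophage and 3 erythroid markers overlapped between the groups. The 6 skeletal muscle markers, Acta1 and Ckm among them, were the brightest list, with sums of 166736 to 204531 on hyperthyroid and 214217 to 241978 on control arrays. All 6 lay below 0 (median -0.40) and none passed, and with quantile normalization Ckm and Tnnt3 lay above 0. Before adjustment 4 of the 6 had a limma p under 0.05, against 5.21% of all genes on the lower side. The 100 brightest probe sets held 21.8 to 24.4% of the signal on hyperthyroid and 25.9 to 27.9% on control arrays. No listed marker was at an intensity of 0, as the files hold none. The part of these cells and of the signal share in the members' difference was not tested.

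Genes of the same signal level as the members were compared next. Among 424 genes with a mean log2 level of 11 to 13, the median log2 fold change was -0.017, and among the 9 members in that range it was -0.48. In the range of 9 to 11 the medians were 0.028 over 1526 genes and -0.29 over 14 members. In the range of 7 to 9 they were 0.036 over 3349 genes and -0.33 over 4 members. Under 7 they were -0.053 over 4776 genes and -0.082 over 2 members. Above 13 the median was -0.23 over 125 genes, of which 82.4% lay below 0. That range held Acadm as its single member, at -0.47.

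**Figure D3:**
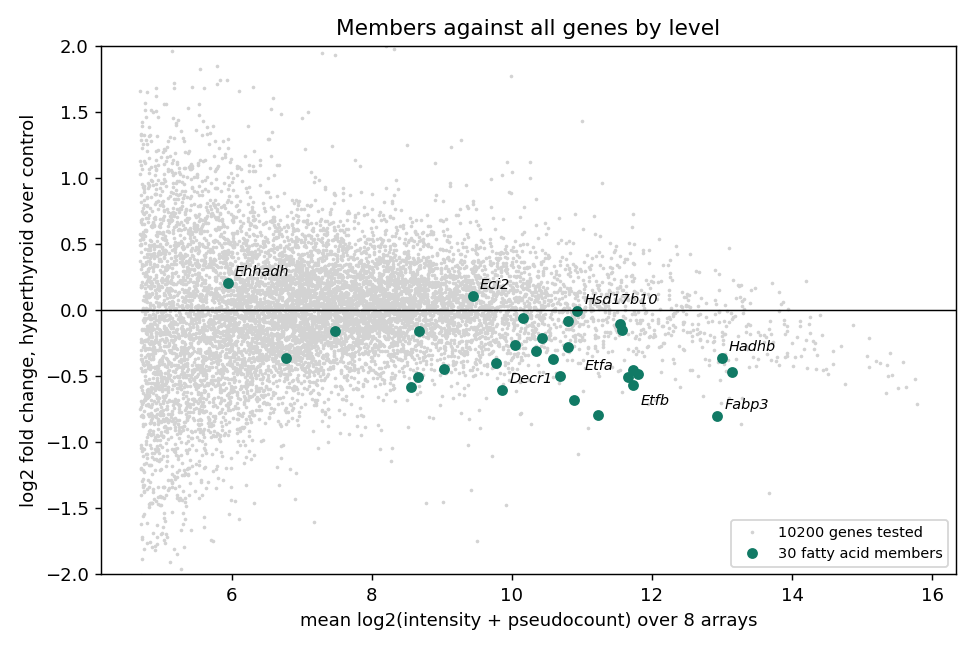
The horizontal axis is a gene's mean log2(intensity + pseudocount) over 8 arrays and the vertical axis its log2 fold change, hyperthyroid over control, with all 10200 tested genes in grey and the 30 members in green. The vertical axis ends at 2 in both directions and leaves out 20 genes. Most members lie under the middle of the cloud at their own level.

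The electron transfer flavoprotein held the members with the smallest p. Etfa encodes its alpha subunit, and its intensity was 2917, 2643, 2742 and 2505 on the hyperthyroid arrays, against 4696, 3538, 3160.1 and 4146 on the control arrays. All 4 hyperthyroid arrays lay under all 4 controls, which held for no other member and for 3.21% of all genes. With 1 of 30, the members were close to that share. The log2 fold change was -0.51 ± 0.14 (SE, limma adjusted p = 0.239, exact permutation p = 0.0286, two-sided and unadjusted, the smallest that 4 against 4 can give). Etfb, the beta subunit that binds Etfa, had 3141, 2709, 3242 and 2175 on hyperthyroid and 5341, 3675, 3161 and 4648 on control arrays. Only control replicate 9 fell within the hyperthyroid range, and the log2 fold change was -0.57 ± 0.18 (limma adjusted p = 0.296). Etfdh, the membrane-bound oxidoreductase that takes electrons from the flavoprotein to ubiquinone, had 2053, 1002, 1152 and 769.97 on hyperthyroid and 1624, 1292, 1141 and 1800.04 on control arrays. Its groups overlapped widely because hyperthyroid replicate 1 was the highest of all arrays, and the log2 fold change was -0.31 ± 0.25. Without control replicates 7 and 11 the log2 fold changes were -0.31 for Etfa, -0.29 for Etfb and -0.063 for Etfdh.

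The sequences before the starts of Etfa and Etfb are shown because these subunits of 1 heterodimer differed by nearly the same amount. They are the 250 bases before each RefSeq start on the gene's strand (assembly GRCr8), chr8:64787966-64788215 on the minus strand for Etfa and chr1:102988249-102988498 on the plus strand for Etfb. Capitals mark CCAAT or its reverse complement ATTGG, the CCAAT box, or AGGTCA or TGACCT, the half-site that thyroid hormone receptors and related nuclear receptors bind.
Etfa: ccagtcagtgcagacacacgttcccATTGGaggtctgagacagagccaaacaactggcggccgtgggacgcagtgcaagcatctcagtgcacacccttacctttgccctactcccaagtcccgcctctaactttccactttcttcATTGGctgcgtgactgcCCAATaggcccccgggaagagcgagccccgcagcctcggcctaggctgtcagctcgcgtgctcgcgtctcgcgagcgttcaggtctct
Etfb: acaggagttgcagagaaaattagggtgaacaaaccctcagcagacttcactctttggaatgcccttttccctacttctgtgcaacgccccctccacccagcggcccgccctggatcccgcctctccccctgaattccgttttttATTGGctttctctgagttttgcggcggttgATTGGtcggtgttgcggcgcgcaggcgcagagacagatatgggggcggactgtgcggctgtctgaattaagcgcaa
The Etfa window holds 3 CCAAT boxes and the Etfb window 2, and neither holds the half-site. Of the 26 members with a sequence in the RefSeq table, 12 had a CCAAT box in this window (46.2%), against 34.0% of all 33469 windows, so the motif is a common one.

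**Figure D4:**
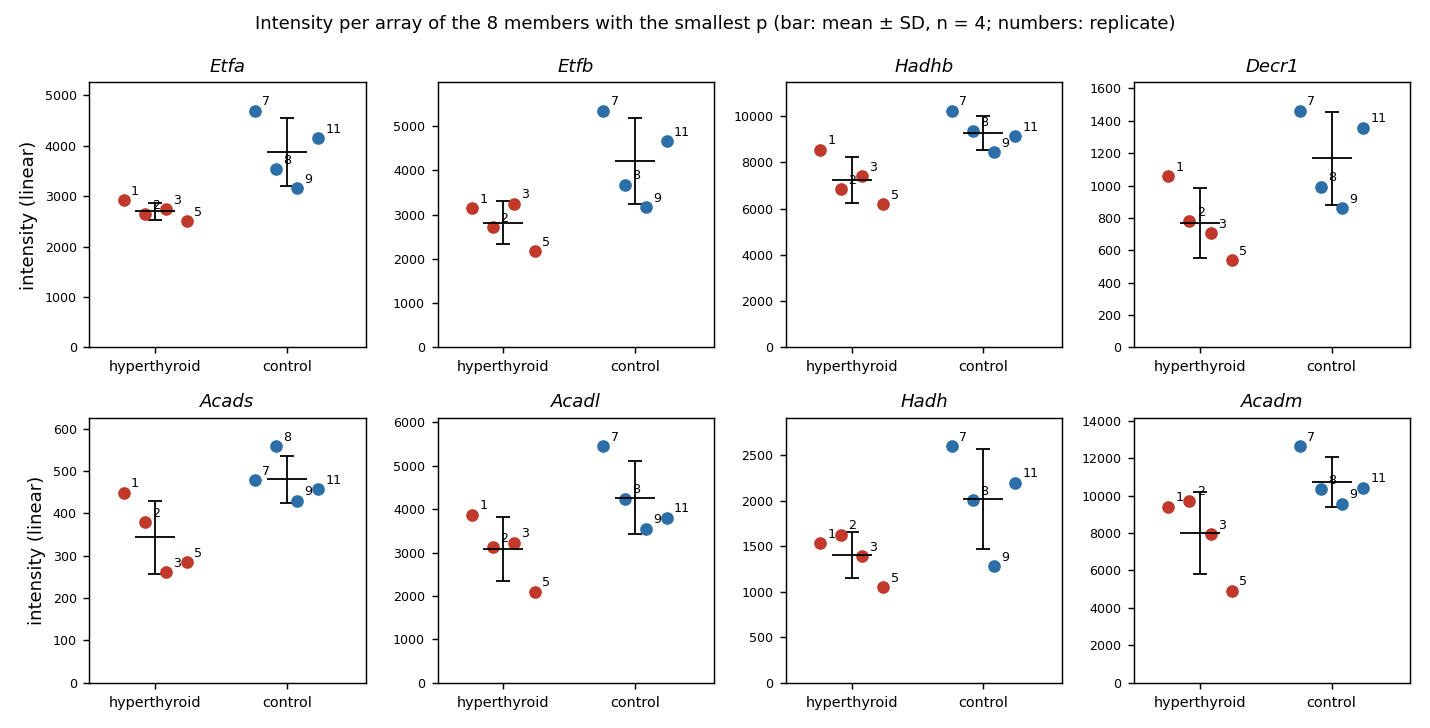
Points give the linear intensity on each array, labelled by replicate number, for the 8 members with the smallest p, with hyperthyroid arrays in red left of control arrays in blue. The horizontal mark and whiskers are the mean ± SD of 4 arrays, and vertical axes start at 0. For Etfa the groups do not overlap, while in the other 7 panels at least 1 array of a group lies within the range of the other.

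The acyl-CoA dehydrogenases open each turn of beta-oxidation and differ by the chain length they prefer. All 4 had a log2 fold change below 0 (median -0.47) and 3 had an unadjusted p under 0.05. Acads, for short chains, had an intensity of 448, 379, 261 and 285 on hyperthyroid and 478, 559, 430.006 and 457 on control arrays. Only hyperthyroid replicate 1 reached into the control range, and the log2 fold change was -0.51 ± 0.19 (limma adjusted p = 0.379). Acadm, for medium chains, had 9411, 9714, 7929 and 4923 on hyperthyroid and 12638, 10324, 9559 and 10419.8 on control arrays, with overlap at 1 array of each group. Its log2 fold change was -0.47 ± 0.19 (limma adjusted p = 0.436). Acadl, for long chains, had 3869, 3120.02, 3231 and 2104 on hyperthyroid and 5453, 4239, 3552 and 3804 on control arrays. Hyperthyroid replicate 1 exceeded 2 controls, and the log2 fold change was -0.48 ± 0.19 (limma adjusted p = 0.399). Acadvl, the membrane-bound enzyme for very long chains, averaged 1656.5 ± 429 in hyperthyroid and 1976 ± 325 in control muscle (SD, n = 4 each), for a log2 difference of -0.28 ± 0.20. Without control replicates 7 and 11, the values of Acads, Acadm and Acadl were -0.54, -0.36 and -0.37, while that of Acadvl was -0.096.

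The mitochondrial trifunctional protein carries out the later reactions on long chains, with Hadha encoding its alpha and Hadhb its beta subunit. Hadhb had an intensity of 8553, 6830.2, 7389 and 6195 on hyperthyroid and 10230.1, 9338, 8445 and 9126 on control arrays. Only hyperthyroid replicate 1 passed above the lowest control, and the log2 fold change was -0.37 ± 0.13 (limma adjusted p = 0.336). Hadha had 2442, 1957, 1569.8 and 1212 on hyperthyroid and 2020.2, 1699, 1848 and 1802 on control arrays. Its hyperthyroid values lay on both sides of the controls, with a log2 fold change of -0.082 ± 0.18. A second, dim probe set of Hadha gave 0.43 ± 0.43. Whether the subunits differed from each other was not tested.

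Both subunit genes start from the same stretch of chromosome 6 and run away from each other. In the RefSeq genes of GRCr8, Hadhb starts at base 31907557 on the minus strand and Hadha starts at base 31907801 on the plus strand. The 243 bases between them (chr6:31907558-31907800, written on the strand of Hadha) are shown because 1 interval precedes both genes.
Hadha and Hadhb: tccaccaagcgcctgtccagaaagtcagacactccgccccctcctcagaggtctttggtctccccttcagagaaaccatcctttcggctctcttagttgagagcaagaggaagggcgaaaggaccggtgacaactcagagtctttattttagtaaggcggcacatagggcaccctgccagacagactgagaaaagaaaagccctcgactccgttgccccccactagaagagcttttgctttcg
No letters are in capitals, as neither the CCAAT box nor the half-site occurs there.

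None of the other enzymes of hydration, second dehydrogenation and thiolysis passed the test, and whether they differed from each other was not tested. Hadh, the hydroxyacyl-CoA dehydrogenase for shorter chains, had 1532, 1630.2, 1393 and 1051 on hyperthyroid and 2601, 2007, 1285 and 2199 on control arrays. Control replicate 9 lay within the hyperthyroid range, and the log2 fold change was -0.50 ± 0.21 (limma adjusted p = 0.429). Acaa2, the mitochondrial thiolase, averaged 2965 ± 692 in hyperthyroid and 4062 ± 928 in control muscle (SD, n = 4 each), for a log2 difference of -0.46 ± 0.20. Without control replicates 7 and 11 these were -0.22 and -0.19. Dim second probe sets gave -0.82 ± 0.49 for Hadh and -0.80 ± 0.67 for Acaa2. Echs1, the short-chain enoyl-CoA hydratase, had a log2 fold change of -0.059 ± 0.13. Acat1, a thiolase that also serves ketone bodies and isoleucine, had -0.15 ± 0.13, and its second probe set gave -0.20 ± 0.18. Hsd17b10, a dehydrogenase that acts on branched chains and takes part in mitochondrial RNA processing, averaged 1951 ± 61.2 in hyperthyroid and 1967 ± 198 in control muscle (SD, n = 4 each). Its log2 fold change was -0.0069 with a 95% interval of -0.26 to 0.25, the difference nearest to 0 among the members.

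Double bonds in unsaturated chains need auxiliary enzymes. Decr1, the mitochondrial dienoyl-CoA reductase, had an intensity of 1059, 781, 704 and 540.4 on hyperthyroid and 1462, 993, 859.8 and 1357 on control arrays. Hyperthyroid replicate 1 lay above 2 controls, and the log2 fold change was -0.60 ± 0.22 (limma adjusted p = 0.354). Eci1, an enoyl-CoA isomerase, averaged 1372 ± 296 in hyperthyroid and 1759 ± 222 in control muscle (SD, n = 4 each), for a log2 difference of -0.37 ± 0.16. Eci2, the other isomerase, had 1161, 659.8, 655 and 524 on hyperthyroid and 810.4, 551, 525 and 839 on control arrays. Its mean was higher in hyperthyroid muscle through replicate 1 alone, with a log2 fold change of 0.10 ± 0.24 that was -0.13 without that array.

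**Figure D5:**
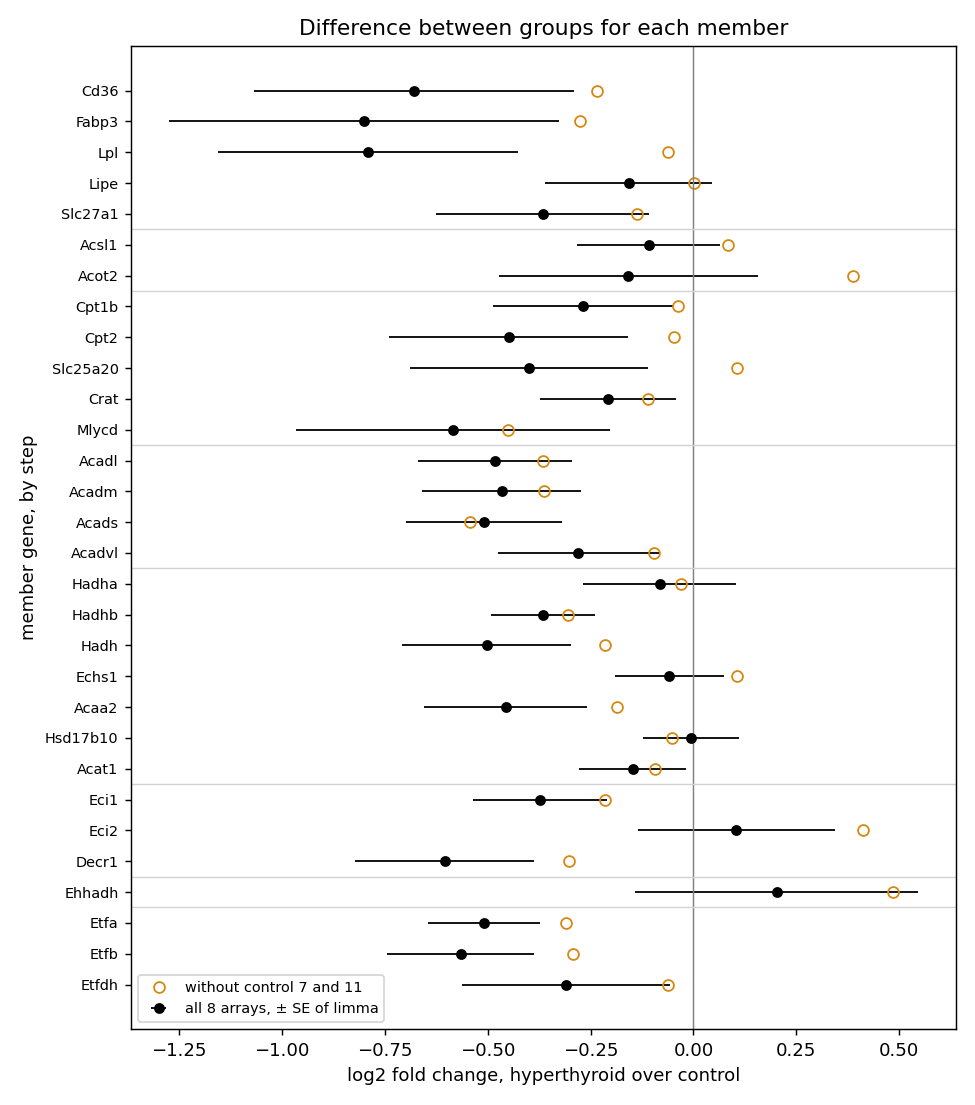
Filled points give each member's log2 fold change, hyperthyroid over control, with the SE of limma as whiskers, grouped by step. Open circles give the value without control replicates 7 and 11, the controls with the highest mean member levels. Of the 30 filled points 28 lie left of 0, and of the open circles 23 do, with the longest moves in Lpl, Acot2, Fabp3 and Slc25a20.

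Uptake and intracellular binding showed wide differences with wide errors. Lpl, the lipase that frees fatty acids from circulating triglyceride, had 3038, 1707, 1744 and 1195 on hyperthyroid and 5466, 2199.6, 1629 and 4958 on control arrays. Control replicates 7 and 11 stood far above all others, while the other 2 controls lay within the hyperthyroid range. The log2 fold change was -0.79 ± 0.36 (limma adjusted p = 0.469), and -0.062 without these 2 controls. Fabp3, the fatty acid binding protein of heart and muscle, had 15086, 7346, 5467 and 2001 on hyperthyroid and 13481, 7568, 6742 and 16264 on control arrays. Its hyperthyroid values spanned nearly the whole range, with a log2 fold change of -0.80 ± 0.47 and -0.28 without control replicates 7 and 11. Cd36, the membrane receptor for long-chain fatty acids, had 3789, 1305, 1279.7 and 788 on hyperthyroid and 3476, 1976, 1564 and 3071 on control arrays. Hyperthyroid replicate 1 was above every control and the other 3 were below every control. The log2 fold change of Cd36 was -0.68 ± 0.39, and -1.13 without hyperthyroid replicate 1. Slc27a1, which encodes FATP1, averaged 94.0 ± 19.8 in hyperthyroid and 123 ± 32.8 in control muscle (SD, n = 4 each), for a log2 difference of -0.37 ± 0.26. Lipe, the hormone-sensitive lipase of stored fat, had -0.16 ± 0.20, and its dim second probe set gave -0.66 ± 0.62.

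The carnitine shuttle lay below 0 in all 5 members, with a median of -0.40 and no unadjusted p under 0.05. Cpt1b, the muscle carnitine palmitoyltransferase of the outer membrane and the controlled entry step, averaged 988 ± 290.2 in hyperthyroid and 1177 ± 264 in control muscle (SD, n = 4 each). Its log2 fold change was -0.27 ± 0.22, with a 95% interval of -0.74 to 0.21. Cpt2, its partner on the inner membrane, had -0.45 ± 0.29, and Slc25a20, the carnitine carrier, had -0.40 ± 0.29. Without control replicates 7 and 11 these were -0.037 for Cpt1b, -0.048 for Cpt2 and 0.11 for Slc25a20, so that the step's median was -0.048. Crat, the acetyltransferase for short chains, had -0.21 ± 0.17. Mlycd, which removes the Cpt1b inhibitor malonyl-CoA, had 871, 185, 254 and 206 on hyperthyroid and 516, 367, 473 and 488 on control arrays. Hyperthyroid replicate 1 was the highest of the 8 arrays and the other 3 hyperthyroid arrays were the lowest 3. The log2 fold change of Mlycd was -0.58 ± 0.38, and -1.09 without that array, with a limma adjusted p of 0.095 that did not pass.

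Activation and thioester hydrolysis were read by 2 tested members, and neither passed the test. Acsl1, the main long-chain acyl-CoA synthetase of muscle, averaged 2929 ± 647 in hyperthyroid and 3141 ± 596 in control muscle (SD, n = 4 each), for a log2 difference of -0.11 ± 0.17. Its other kept probe set gave -0.24 ± 0.21. Acot2, the mitochondrial acyl-CoA thioesterase, had -0.16 ± 0.31, with a 95% interval of -0.84 to 0.52, and 0.39 without control replicates 7 and 11. Its other 2 kept probe sets gave -0.48 ± 0.36 and -0.89 ± 0.53. Acot1, its cytosolic paralogue, averaged 12.3 in hyperthyroid and 11.8 in control muscle, under the filter, and was not tested. Acot1 and Acot2 are close copies that lie side by side, and a probe set annotated to both was dim, at 3.44 to 113 on hyperthyroid and 2.96 to 50.2 on control arrays.

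Of the 2 peroxisomal members, only Ehhadh was measured by a probe set of its own. Ehhadh, the peroxisomal bifunctional enzyme, had 80.0, 70.1, 56.0 and 48.0 on hyperthyroid and 75.1, 50.7, 37.3 and 58.3 on control arrays, with overlapping groups and a log2 fold change of 0.20 ± 0.34 (95% interval -0.54 to 0.94). Acaa1a, the peroxisomal thiolase, is read only by a probe set shared with Acaa1b, which averaged 177 ± 37.4 in hyperthyroid and 145 ± 17.03 in control muscle (SD, n = 4 each). Shared probe sets also exist for Cd36 and Cd36l1 (3266 ± 2164 in hyperthyroid and 5350 ± 2378 in control muscle) and for Eci2 and Eci3 (444 ± 137 and 414 ± 88.9).

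The half-site AGGTCA is shown for the members that hold it in the 250 bases before their start, since the hormone given acts through receptors of this family. It occurred, on either strand, in Acadvl, Echs1, Eci1 and Slc27a1, 4 of 26 members (15.4%), and in 14.1% of all 33469 windows. The capitals mark the half-site, read 5′ to 3′ on each gene's strand, with up to 10 bases on either side.
Acadvl, 169 bases before the start, chr10:55236859-55236884, minus strand: ggatcaccctAGGTCAagtagaatac
Acadvl, 17 bases before the start, chr10:55236707-55236732, minus strand: acgggagaagAGGTCAgtggtcaagg
Echs1, 93 bases before the start, chr1:204333584-204333609, minus strand: caccccgcccAGGTCAcgggtacatc
Eci1, 94 bases before the start, chr10:13961146-13961171, plus strand: tggctgatctTGACCTcctgaagggc
Slc27a1, 242 bases before the start, chr16:18312717-18312740, plus strand: gtcctcatTGACCTctggctgtcc
Direct repeats were counted only where both half-sites matched exactly. At 1 base apart they occurred in 0 of the 26 member windows and in 17 of all windows. That spacing is known for PPAR with the retinoid X receptor. The Acadvl half-site 17 bases before the start is followed, after 1 base, by tggtca, which differs from it in the first letter. Exact half-sites 4 bases apart, the spacing known for thyroid hormone receptors, occurred in 0 and in 1. Both repeats are so rare over all windows that 0 of 26 says nothing particular to the members. Decr1, Lipe, Cpt1b, Lpl, Acadl and Acaa2 had no window to search. The log2 fold changes of the 4 genes with a half-site were -0.28 for Acadvl, -0.059 for Echs1, -0.37 for Eci1 and -0.37 for Slc27a1, within the range of the other members.

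Sex could be read from the arrays but not from the labels. Xist, transcribed from the silenced X chromosome of females, was at 490 on hyperthyroid replicate 1 and 344 on control replicate 11, and at 12.4 to 49.97 on the other 6. The Y-linked gene Eif2s3y was at 0.73 and 19.5 on these 2 arrays and at 355 to 639 on the others. Over the 3 hyperthyroid and 3 control arrays of low Xist, the median of the members was -0.47, with 28 of 30 below 0. The groups of these arrays did not overlap for 10 members (Cd36, Slc27a1, Crat, Mlycd, Acadl, Acads, Hadhb, Eci1, Decr1 and Etfa), all lower in hyperthyroid muscle, against 7.71% of all genes on that side. No member passed the limma test over these 6 arrays, or with the 2 arrays of high Xist as a block, where the smallest adjusted p was 0.212, for Etfa. Between the 2 arrays of high Xist, hyperthyroid minus control, the median difference was -0.045 over the members and -0.028 over all genes. With 1 such array in each group, that difference has no replicate and its contrast with the other arrays was not tested.

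Other genes of fatty acid metabolism, were listed beside the members, and 0 of 70 tested genes passed, where 0.0686% of all genes did. Of 14 binding, activation and carnitine genes 8 lay below 0 and 6 above, with a median of -0.069. Dbi, the acyl-CoA binding protein, averaged 3888 ± 403 in hyperthyroid and 2744 ± 428 in control muscle (SD, n = 4 each), for a log2 difference of 0.51 ± 0.14 (limma adjusted p = 0.239). Acsl4, a synthetase with a preference for arachidonate, averaged 439 ± 204 and 231 ± 21.5, a log2 fold change of 0.83 ± 0.25 (limma adjusted p = 0.273). For both, all hyperthyroid arrays lay above all controls, as for 3.34% of all genes. Acsl6 and Acsl3 had 0.36 ± 0.17 and 0.53 ± 0.31. Where 4 synthetases were tested beside Acsl1, Acsl5 alone lay below 0, at -0.24 ± 0.37.

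Of 10 other mitochondrial acyl-CoA genes 7 lay below 0 (median -0.064). Hibch, a hydrolase of valine breakdown, averaged 510.3 ± 77.8 in hyperthyroid and 799 ± 131 in control muscle without overlap, a log2 fold change of -0.64 ± 0.17 (limma adjusted p = 0.237). Acad8, Acot13 and Mecr had 0.28 ± 0.16, -0.26 ± 0.17 and 0.37 ± 0.32. Of 13 genes of peroxisomal oxidation 8 lay below 0 (median -0.037). Pecr, a peroxisomal enoyl-CoA reductase, averaged 739 ± 94.5 and 1066 ± 205 without overlap, a log2 fold change of -0.52 ± 0.16 (limma adjusted p = 0.296). Phyh, of phytanic acid oxidation, had -0.35 ± 0.16, and the transporter gene Abcd2 and Amacr had 0.46 ± 0.19 and 0.29 ± 0.16.

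Genes of triglyceride storage and lipolysis split 7 and 7 (median -0.036). G0s2, an inhibitor of adipose triglyceride lipase, had a log2 fold change of -0.86 ± 0.33, and Pnpla2, which encodes that lipase, had 0.49 ± 0.28. Dgat2 and Plin4 had 0.68 ± 0.42 and -0.30 ± 0.18. Of the ketone body genes, Oxct1, the transferase by which muscle uses ketone bodies, averaged 4442 ± 1411 in hyperthyroid and 6253 ± 1328 in control muscle (SD, n = 4 each), for a log2 difference of -0.53 ± 0.22. Slc16a1 and Acat2 had 0.15 ± 0.31 and -0.15 ± 0.52.

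Regulators of fatty acid oxidation had a median of 0.069, with 6 of 16 below 0. Pparg, a nuclear receptor of fat storage, had 1.56 ± 0.67 at intensities of 56.9 ± 24.1 in hyperthyroid and 20.8 ± 18.2 in control muscle (SD, n = 4 each). Nrf1 and Esrra, activators of mitochondrial genes, had -0.92 ± 0.47 and -0.44 ± 0.23, and Acaca, which makes malonyl-CoA, had 0.62 ± 0.32. Nrf1 was dim, at 31.9 ± 21.8 in hyperthyroid and 56.3 ± 7.16 in control muscle (SD, n = 4 each). Of the same list, Ppargc1a, Ppargc1b and Tfam lay above 0, at 0.20 ± 0.24, 0.045 ± 0.40 and 0.093 ± 0.13. Ppara, the receptor known to induce beta-oxidation genes in liver, lay under the filter. None of these regulators passed the test.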

How the data were processed

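The authors deposited 1 linear intensity for each probe set on each array. The submitters' processing notes name GCOS, the Affymetrix software, without version or settings. The authors' scaling is visible in the values, since every array has a mean of 150.1 after 2% are left out at each end. Scanner values were not analysed here. Array medians ran from 38.8 to 54.9, no 2 arrays were identical, and with 4 arrays per group their number limits the precision.

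Of 31099 probe sets, 20826 carry 1 symbol in the platform annotation, 436 several and 9780 none, and 57 are controls. Values were taken as log2(intensity + 3.41), the 10th percentile, so folds of dim genes are understated. Probe sets above the 40th percentile of mean log2 level were kept (18625), and each gene was read by its brightest. Differences were fitted with limma 3.58.1 in R 4.3.3 (lmFit, eBayes with a variance trend), two-sided, Benjamini-Hochberg adjusted over 10200 genes, and tested on simulated data. SE and intervals are limma's. Members, lists and several alternatives were chosen with earlier results of these data known. All 32 members are named, and of each further list of fatty acid genes up to 4 tested genes with the smallest p. Marker genes are named only where their levels stand beside a result. Acsl5, Ppara, Ppargc1a, Ppargc1b and Tfam were named after their values were seen. The alternatives are in the closing section.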

Additional observations from a re-analysis of the deposited data

How the results depend on the processing

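No member passed under any of 24 alternatives. The median of the members stayed below 0 in all of them, from -0.52 (without hyperthyroid replicate 1) to -0.054, and 17 of 30 members kept their sign. Dropping the variance trend, robust variance, the threshold of 0.01 and high Xist as a block leave the estimates unchanged. The median and signs could therefore not move under these, and the stricter threshold could not add a call. With arrays left out 1 at a time, the median ran from -0.52 to -0.26, the members below 0 from 25 to 29, and the genes called over the whole array, 7 with all arrays, from 1 to 7. Centring on array medians and scaling to 18 hybridization controls moved the median of all genes to 0.22 and 0.31. Relative to that shift the members had -0.37 under both, and 17 lay below 0 under the hybridization controls. Genes called over the whole array numbered 12 with centring, 110 with the hybridization controls, 11 without a filter, 0 without a variance trend, 14 with robust variance, 1 with all probe sets averaged, 1 at an adjusted p under 0.01, 3 without control replicates 7 and 11, 11 with high Xist as a block and 4 without hyperthyroid replicate 1 and control replicates 7 and 11. The last 2 alternatives were added after seeing the data.

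Signs turned for genes that did not pass. With centring they were Acat1 (0.072), Acat2 (0.067), Acot2 (0.062), Acsl1 (0.11), Crat (0.012), Echs1 (0.16), Hadha (0.14), Hsd17b10 (0.21) and Lipe (0.062). With the hybridization controls they were Acadvl (0.040), Acat1 (0.17), Acat2 (0.13), Acot13 (0.062), Acot2 (0.16), Acsl1 (0.21), Cpt1b (0.052), Crat (0.11), Echs1 (0.26), Etfdh (0.011), Hadha (0.24), Hsd17b10 (0.31), Lipe (0.16) and Plin4 (0.018). There Dbi passed, at 0.83 (limma adjusted p = 0.0369). With quantile normalization they were Acat2 (0.062), Ckm (0.12) and Tnnt3 (0.055), and with averaged probe sets Hadha (0.17). Without control replicates 7 and 11 they were Acot2 (0.39), Acsl1 (0.083), Echs1 (0.11), Lipe (0.0012) and Slc25a20 (0.11), and without hyperthyroid replicate 1 as well Acot2 (0.15), Echs1 (0.084) and Lipe (0.097). Without both arrays of high Xist they were Acat2 (0.0081), Eci2 (-0.016), Lipe (0.0053) and Slc16a1 (-0.051). Some genes also turned with a single array left out. Over all 8 such fits, turned or not, values ran from -0.24 to 0.022 for Acsl1, -0.40 to 0.078 for Acot2 and -0.12 to 0.013 for Echs1. They ran from -0.25 to 0.090 for Hadha, -0.047 to 0.056 for Hsd17b10 and -0.13 to 0.25 for Eci2. For Slc16a1 they ran from -0.053 to 0.45, and for Acat2 from -0.38 to 0.13. The cause was not tested. No paired analysis was possible because the groups share no replicate number.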
